A study of Mus musculus with 4 samples.

Results

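The miR-200 family of mature microRNAs was followed from WT to TKO mouse embryonic stem cells (ESCs). Its members were chosen by name, as every probe for mmu-miR-200a, mmu-miR-200b, mmu-miR-200c, mmu-miR-141 or mmu-miR-429 with or without an arm suffix or star. This gave 5 of the 566 probes for mouse miRNAs, 1 for each member, and no probe for a star or second arm. Levels came from the NanoString nCounter assay, which counts barcoded probes bound to single miRNA molecules in total RNA. The WT group was the R1 ESC line, and the TKO group was R1 ESCs in which the 3 DNA methyltransferase genes Dnmt1, Dnmt3a and Dnmt3b are knocked out. Each genotype had 2 samples, described by the submitters as biological replicates. Both lines were grown on gelatin with fetal calf serum and leukemia inhibitory factor, whereas the labels give 4 days of differentiation before RNA isolation for all 4 samples. These descriptions conflict, so whether undifferentiated or differentiating cells were profiled is not settled, and ESC is used here as the name of the lines. The number of TKO clones behind the samples is not given in the sources used here, so knockout, cell line and culture cannot be told apart.

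The miR-200 family is best known as a keeper of the epithelial state. Its members repress the mRNAs of Zeb1 and Zeb2, transcription factors that shut down E-cadherin (Cdh1), and the ZEB factors in turn repress the promoters of both miR-200 clusters. Members are enriched in epithelia and in pluripotent cells with epithelial character, fall during the epithelial to mesenchymal transition, and in mesenchymal and cancer cells their promoters are known targets of DNA methylation.

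The 5 members come from 2 loci, and their sequences are shown because locus and seed divide them in different ways. The seed is the stretch from base 2 to base 8 that pairs with target mRNAs, given here in capitals, 5′ to 3′, in the RefSeq sequence of GRCm38.p6. The names in the deposited table carry no arm. The 3p arm is printed, which the unsuffixed names stood for in older miRNA nomenclature, and RefSeq held it for all 5 members. The members with the first seed were these.

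mmu-miR-200b-3p: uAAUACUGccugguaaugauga

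mmu-miR-429-3p: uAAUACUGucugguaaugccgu

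mmu-miR-200c-3p: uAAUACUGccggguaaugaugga

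The members with the second seed differ from them at position 4, counted from 1 at the 5′ end (U4C).

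mmu-miR-200a-3p: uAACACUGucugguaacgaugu

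mmu-miR-141-3p: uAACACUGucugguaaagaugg

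No other mature mouse miRNA in the RefSeq table carried either seed. The miR-200b, miR-200a and miR-429 hairpins lie on the minus strand of chromosome 4, within 1846 bp (chr4:156053905-156055750) inside the span of the long noncoding gene Gm13648. The miR-200c and miR-141 hairpins lie on the minus strand of chromosome 6, within 477 bp (chr6:124717914-124718390) and inside no other annotated gene, 968 bp from Phb2 and 2316 bp from Ptpn6. Each seed therefore has members at both loci. The closest relatives sit on different chromosomes, since miR-200b and miR-200c differ at 2 of 22 aligned positions (U11G and A22G, with 1 more base in miR-200c), and miR-200a and miR-141 also at 2 of 22 (C17A and U22G). Whether probes for such near-identical sequences share signal was not tested.

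Whole counts recovered from the deposited values summed to between 511661 and 613666 per sample. Probes for viral miRNAs, which have no target in these cells, set a background of 69.2 normalized counts (mean plus 2 SD of 33 probes), and 238 mouse probes had a mean above it. The Dnmt mRNAs are not on this panel, so the knockout cannot be checked here. Among the markers, the miR-290 cluster of ESCs had 8 of 11 probes above background and summed to 332117 to 338120 normalized counts in WT and 271498 to 295039 in TKO cells. Markers of muscle (4 probes) and liver (1 probe) were all below background, and of 5 blood probes 2 were above it, with miR-142-3p the highest at 807 and 762 in WT, against 1159 and 1278 in TKO cells (log2 difference 0.63, adjusted p = 0.0944 from limma). The let-7 family, which rises as ESCs differentiate, had 7 of 9 probes above background and summed to 1634 to 1680 in WT and 1345 to 1693 in TKO cells. Of the neuronal markers, miR-124 was 500 and 457 normalized counts in WT, against 132 and 134 in TKO cells (log2 difference -1.84, adjusted p = 0.00620 from limma), and miR-9 was 87.4 to 120.9 and 77.2 to 90.9. The miR-302 and miR-367 cluster, which marks primed pluripotent cells, was added after its values were seen. Of its 5 probes 4 were called higher, where 4.24% of all mouse probes were called higher. The 5 probes summed to 373 and 349 in WT, against 1649 and 2021 in TKO cells. miR-302a had the largest difference of this cluster, from 47.1 and 53.4 to 503 and 625 (log2 difference 3.46, adjusted p = 0.00423 from limma). The lowest recovered value over the 4 samples was 1 count, so no probe was listed at 0. The part of differences in cell state in the results below was not tested, and in RNA from whole cultures fewer cells of a type and less RNA per cell cannot be told apart.

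All 5 members of the family were above background and lay lower in both TKO samples than in both WT samples. miR-429 and miR-200a fell, to 47.4% and 53.3% of their WT means. The mean of miR-200b was 56.7% of WT, that of miR-141 72.1% and that of miR-200c 75.6%, and these 3 did not pass the test after adjustment. The 3 miRNAs of the chromosome 4 cluster had larger differences than the pair on chromosome 6, whichever seed they carried.

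**Figure D1:**
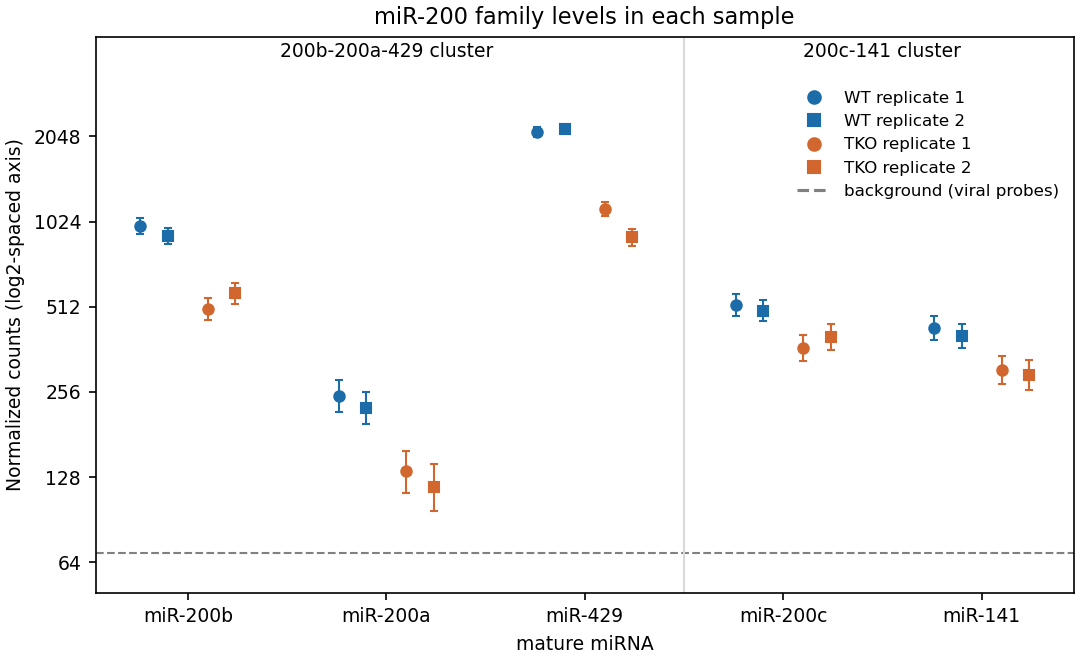
Normalized counts (log2-spaced axis) of the 5 family members in each WT (blue) and TKO (orange) sample, with 95% Poisson intervals of the recovered counts as bars and the viral probe background of 69.2 as a dashed line. Every TKO point lies below both WT points of the same miRNA, with a wider step for miR-200b, miR-200a and miR-429 than for miR-200c and miR-141.

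In the chromosome 4 cluster, miR-429 stood at 2121 and 2176 normalized counts in WT, against 1136 and 900.5 in TKO cells. The TKO replicates differed by more than their counting error, with 95% Poisson intervals of 1071 to 1203 and 841 to 963, but both lay far below the WT values. The log2 difference, taken as TKO minus WT after adding 1 to each normalized count, was -1.09 (SE 0.18, 95% interval -1.57 to -0.60, adjusted p = 0.0403 from limma). miR-200a, which shares its seed with miR-141, stood at 248 and 225 in WT, against 134 and 118 in TKO cells. These are the lowest counts of the family, and the intervals of the WT values (197 at the lowest) and of the TKO values (159 at the highest) did not meet. Its log2 difference was -0.90 (SE 0.16, 95% interval -1.34 to -0.47, adjusted p = 0.0454 from limma). miR-200b stood at 988 and 911 in WT, against 504 and 572 in TKO cells, again without overlap of the genotypes. Its log2 difference of -0.82 (SE 0.16, 95% interval -1.25 to -0.39) did not pass after adjustment (adjusted p = 0.0582 from limma, unadjusted p = 0.00514).

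In the chromosome 6 cluster, miR-141 stood at 430 and 404 normalized counts in WT, against 306 and 295 in TKO cells. Its log2 difference was -0.47 (SE 0.15, 95% interval -0.86 to -0.08, adjusted p = 0.152 from limma). miR-200c, which shares its seed with miR-200b and miR-429, stood at 519 and 496 in WT, against 367 and 401 in TKO cells. The genotypes did not overlap for either miRNA, and the gap was the smallest of the family for miR-200c, with a log2 difference of -0.40 (SE 0.15, 95% interval -0.80 to -0.0028, adjusted p = 0.211 from limma). A difference of 0 lies just outside this interval before any adjustment for the number of probes.

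limma with Benjamini-Hochberg adjustment over the 566 mouse probes thus called 2 of the 5 members lower, against 4.24% of all mouse probes called lower. All 5 had an unadjusted p under 0.05 with a lower level in TKO cells, against 15.4% of all mouse probes. TKO values below both WT values, found for all 5 members, were common, at 36% of all mouse probes, so this count alone says little with 2 samples a genotype. The median log2 difference was -0.82 over the family, -0.12 over all mouse probes and -0.20 over the 238 above background. Ranked by difference from the lowest among these 238, miR-429 was number 15, miR-200a 22, miR-200b 28, miR-141 59 and miR-200c 74. The calls depended on the fit, and so did the number of all mouse probes called lower, which was 24 of 566 as reported. It was 57 of 566 with a variance trend, 55 of 566 with voom and 48 of 238 with probes above background alone. It was 10 to 18 of 566 with the replicate block, the viral subtraction and the scalings named next. With voom on the recovered counts, with a variance trend, or with probes above background alone, 4 members were called (all but miR-200c), and without any 1 of the 4 samples, with the replicate number as a block, with the viral mean subtracted, or with the samples scaled by their sum, top 100 probes or upper quartile, none was.

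**Figure D2:**
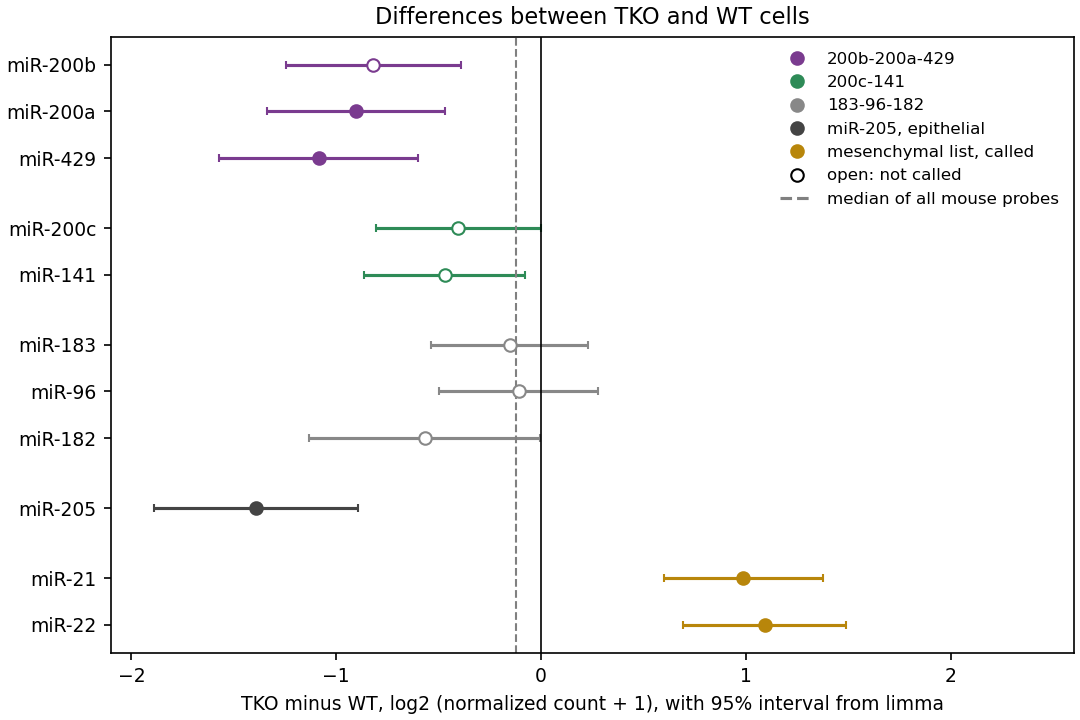
Log2 differences (TKO minus WT, log2 of normalized count plus 1) with 95% intervals from limma for the family, the miR-183 cluster, miR-205 and the called mesenchymal miRNAs, with filled points for called miRNAs and the median of all mouse probes dashed. The miR-200b, miR-200a and miR-429 points lie between -1.09 and -0.82, and those of miR-200c and miR-141 at -0.40 and -0.47.

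The 2 clusters were compared inside each sample, where the scaling between samples cancels but background counts do not. The mean log2 level of miR-200b, miR-200a and miR-429 exceeded that of miR-200c and miR-141 by 0.767 and 0.771 in WT but by 0.344 and 0.195 in TKO cells. The gap thus narrowed by 0.50 on the log2 scale. The SDs between replicates were 0.0030 in WT and 0.11 in TKO cells, each from 2 values, which are too few to measure the spread. The mean difference was -0.94 for the chromosome 4 cluster and -0.44 for the chromosome 6 cluster. With the mean of the viral probes subtracted, these means lay -0.55 apart instead of -0.50. This is a description of 5 probes in 4 samples, chosen with earlier results known, and it was not tested. A two-sided permutation of 2 against 2 samples cannot give a p below 0.33.

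Ratios between single members showed the same split. Probes capture their targets with unequal efficiency, so only the change of a ratio between samples is read here, not its size. For the near-identical miR-200b and miR-200c, the ratio of counts was 1.90 and 1.84 in WT, against 1.37 and 1.43 in TKO cells. None of the exact binomial 95% intervals of the WT values, which reached down to 1.65, met those of the TKO values, which reached up to 1.63. For miR-200a and miR-141, which share the other seed, the ratio was 0.577 and 0.558 in WT, against 0.439 and 0.400 in TKO cells. The values did not overlap, but their counting intervals did, from 0.473 upward in WT and up to 0.538 in TKO cells. The ratio of miR-429 to miR-200c moved most, from 4.09 and 4.38 in WT to 3.10 and 2.25 in TKO cells. Of the 6 pairs that take 1 member from each locus, all 6 had lower ratios of chromosome 4 to chromosome 6 member in TKO cells without overlap of the genotypes, and the TKO mean was 63.1% to 78.8% of the WT mean. These 6 ratios reuse the same 5 probes, and non-overlap is no rarity, since it was found in either direction for 68.2% of the ratios between any 2 mouse probes above background. All counting intervals of WT and TKO values lay apart for 3 of the 6 pairs. The share of such pairs over all mouse probes was not computed, and the intervals cover counting error only, so this count says little.

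Pairs from the same locus moved less. The miR-200c to miR-141 ratio was 1.21 and 1.23 in WT, against 1.20 and 1.36 in TKO cells, and that of miR-200b to miR-200a was 3.98 and 4.04 in WT, against 3.75 and 4.85 in TKO cells. In both pairs the genotypes overlapped. The miR-429 to miR-200b ratio was 2.15 and 2.39 in WT, against 2.25 and 1.57 in TKO cells, so that the TKO replicates disagreed with each other beyond their counting intervals (2.03 to 2.51 and 1.41 to 1.76). Among the 4 same-locus pairs, 1 did not overlap between the genotypes (miR-429 to miR-200a), and the TKO means were 84.4% to 107% of the WT means. In the estimates alone, the size of the difference went with the locus rather than the seed. It was larger for miR-200b and miR-429 than for their seed partner miR-200c, and larger for miR-200a than for miR-141. The limma intervals overlapped in each of these comparisons. They reached up to -0.39 for miR-200b and -0.60 for miR-429, against down to -0.80 for miR-200c. For miR-200a the interval reached up to -0.47, against down to -0.86 for miR-141. Whether the size depends on the locus was not tested. Each hairpin sequence held 2 CG dinucleotides except that of miR-141, which held 0.

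**Figure D3:**
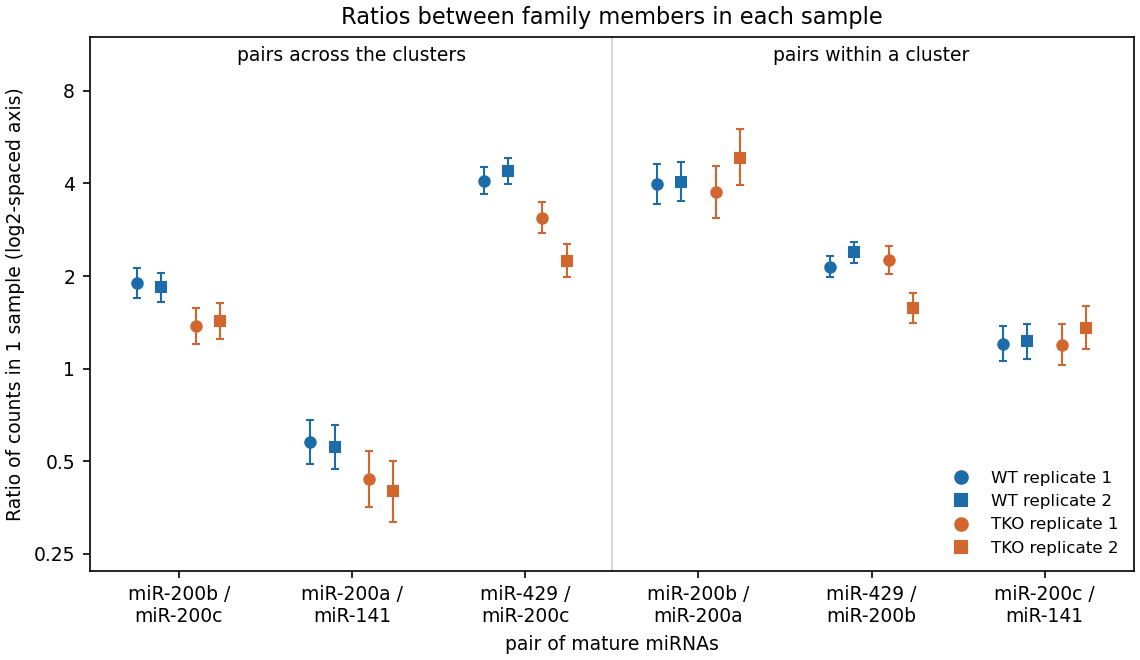
Ratios of recovered counts between pairs of family members in each sample (log2-spaced axis), with exact binomial 95% intervals, for 3 pairs across the loci and 3 pairs within a locus. The miR-200b to miR-200c ratio moves from 1.90 and 1.84 in WT to 1.37 and 1.43 in TKO cells, while the miR-200c to miR-141 ratio keeps overlapping values of 1.20 to 1.36.

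Other epithelial miRNAs were read beside the family from a list of 8 measured probes. Of these 1 fell and none rose after adjustment, where 4.24% of all mouse probes were called lower. Of the 8 probes 5 were above background, and miR-203, miR-192 and miR-375 were below it. A lower mean in TKO cells was found for 7 of the 8, but also for 61.7% of all mouse probes, and the median log2 difference was -0.34, against -0.12 over all mouse probes. Before adjustment, limma gave p under 0.05 for 4 lower and 0 higher probes of the list, against 15.4% of all mouse probes for lower ones. miR-205, an epithelial miRNA that also represses Zeb1 and Zeb2 through an unrelated seed, went from 1313 and 1191 normalized counts in WT to 535 and 425 in TKO cells. The genotypes were far apart, and the log2 difference was -1.39 (SE 0.19, adjusted p = 0.0225 from limma), which was not called without any 1 sample or with the viral mean subtracted. Its sequence on chr1:193507503-193507524 is shown for the contrast of seeds.

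mmu-miR-205-5p: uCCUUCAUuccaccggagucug

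The miR-183, miR-96 and miR-182 cluster, another polycistron of epithelial and sensory cells that is also expressed in ESCs, was taken as the family to compare with miR-200. miR-96, the highest of the epithelial list, stood at 4143 and 4099 normalized counts in WT, against 3714 and 3927 in TKO cells. miR-183 stood at 1100 and 1093 in WT, against 970 and 1002 in TKO cells. Their log2 differences of -0.11 (95% interval -0.50 to 0.28) and -0.15 (95% interval -0.54 to 0.23) were near the median of all probes, and both intervals overlap that of miR-200b. Scaled by the 100 highest probes, both differences turned positive (0.058 and 0.015). miR-182 stood at 469 and 484 in WT, against 377 and 273 in TKO cells, a log2 difference of -0.57 (95% interval -1.13 to -0.0058, adjusted p = 0.211 from limma), and this interval covers the estimates of all 5 family members. No member of this cluster was called, and whether it differs from the miR-200 family was not tested. The largest positive difference on the list was that of miR-375 (0.063), a miRNA of endocrine and gut epithelium, which was below background with 10.7 to 15.0 normalized counts in the 4 samples.

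Of 11 probes for miRNAs enriched in mesenchymal cells, 2 rose and none fell, where 4.24% of all mouse probes were called higher. miR-22 had the highest WT level of the list and went from 1149 and 1221 normalized counts in WT to 2441 and 2616 in TKO cells. Its log2 difference was 1.09 (SE 0.15, adjusted p = 0.0225 from limma), the largest rise of the list. miR-21, abundant in fibroblasts and many tumours, went from 449 and 476 to 910 and 925 (log2 difference 0.99, SE 0.15, adjusted p = 0.0263 from limma). The genotypes were far apart for both, yet neither was called without any 1 of the samples or with the replicate block. Stromal miRNAs of the list were not called in the fit reported here. miR-143 stood at 98.1 to 108 in WT and 87.0 to 120 in TKO cells, miR-145 at 201 to 240 and 162 to 198, and miR-199a-3p had the lowest difference of the list, with 95.2 and 122 in WT, against 72.2 and 61.1 in TKO cells (log2 difference -0.69, adjusted p = 0.137 from limma). Of the 11 probes 6 were below background. The median difference was 0.0073, which is the value of miR-155, a probe with 1 recovered count in each sample, so it carries little information. Before adjustment, limma gave p under 0.05 for 2 higher and 2 lower probes of the list, the lower ones being miR-199a-3p and miR-221. Over all mouse probes 15.4% were lower with p under 0.05 from limma before adjustment, and the share of higher ones was not computed. With probes above background alone, 3 probes of the list were called: miR-22 and miR-21, both higher, and a probe with a negative difference. In that fit 48 of all 238 probes were called lower and 26 higher.

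The miRNAs nearest in pattern to each cluster were sought among the 233 other mouse probes above background, by the Euclidean distance between log2 values centred over the 4 samples. Nearest to the chromosome 4 cluster were miR-125a-3p (distance 0.048, log2 difference -0.93), miR-19a (0.096, -0.96) and miR-27b (0.14, -0.80), where the median distance of all probes was 0.80. On the same measure the cluster's own miR-200a lay at 0.078, miR-429 at 0.23 and miR-200b at 0.24, and miR-141 and miR-200c at 0.47 and 0.56. The cluster's own members enter the mean they are compared with, which draws them closer, whereas miR-141 and miR-200c do not. Nearest to the chromosome 6 cluster were miR-467f (0.071, -0.37), miR-103 (0.072, -0.38) and the joint probe for miR-466a-3p and miR-466b-3-3p (0.072, -0.39), with a median distance of 0.45. Its own members lay at 0.074 each, which is fixed by its mean being taken over that pair. All these distances rest on 4 samples in 2 groups.

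**Figure D4:**
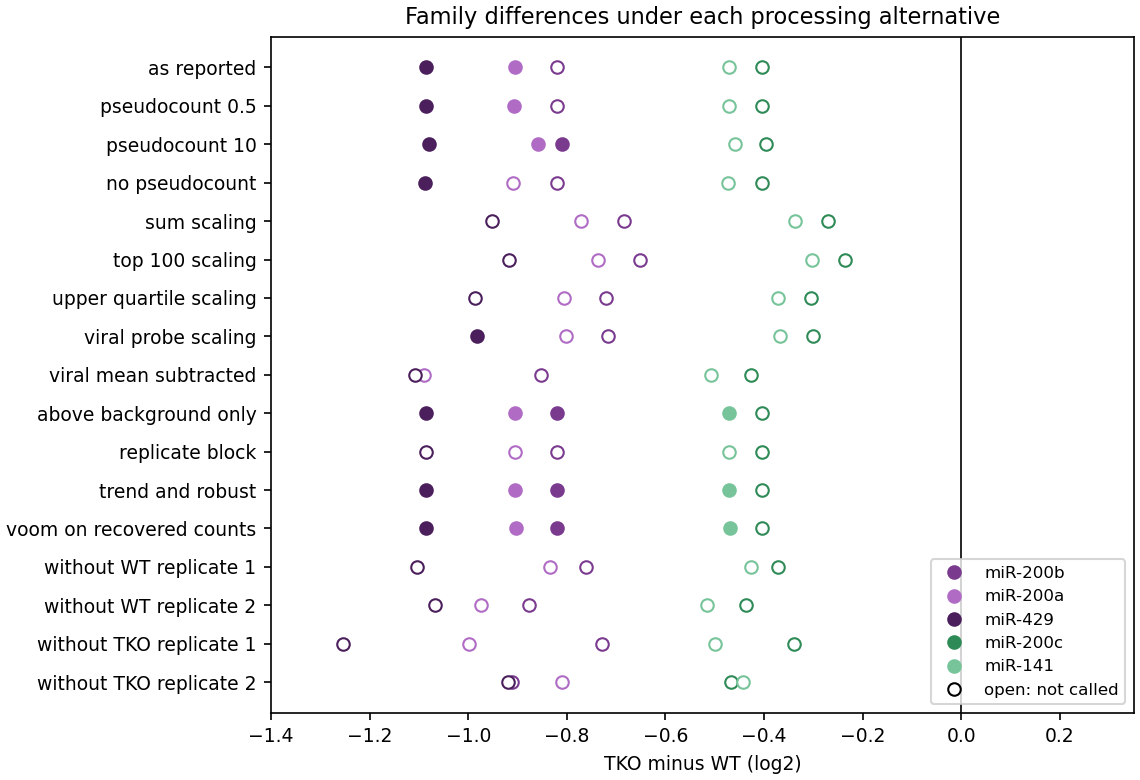
Log2 differences (TKO minus WT) of the 5 family members as reported and under 16 processing alternatives, filled where the adjusted p was under 0.05. All points lie below 0, and the 3 purple points of the chromosome 4 cluster lie below both green points of the chromosome 6 cluster in each row, an order that 7 of the alternatives could not change.

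All 5 members were lower in TKO cells in 16 of 16 alternatives. Both TKO values lay below both WT values for each member, so no pseudocount and no omitted sample could reverse that direction. The fits that leave the differences unchanged could not do so either. In 16 of 16 alternatives each of miR-200b, miR-200a and miR-429 had a lower difference than both miR-200c and miR-141. The order could change in only 9 of these, because the 4 scalings shift all probes of a sample alike, and the replicate block, the variance trend and the restriction to probes above background leave the differences as they were. Over these alternatives the log2 difference ranged from -1.25 to -0.92 for miR-429, from -1.09 to -0.74 for miR-200a, from -0.91 to -0.65 for miR-200b, from -0.52 to -0.30 for miR-141 and from -0.47 to -0.24 for miR-200c. The difference between the means of the clusters lay between -0.57 and -0.42, and both ends came from leaving out a TKO replicate.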

How the data were processed

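The authors measured total RNA with the nCounter miRNA assay and normalized the counts in the nSolver software (version, background handling and normalizing probes are not given in the sources used here). They deposited log2 values for 599 probes, 566 for mouse and 33 for viral miRNAs. On the linear scale each sample held whole counts times 1 factor (100% of values whole within a tolerance of 0.05). Differences were fitted over all mouse probes on log2(normalized count + 1) with limma 3.58.1 (R 4.3.3; lmFit, eBayes, two-sided, Benjamini-Hochberg, threshold 0.05), a fit checked on simulated data. Intervals from recovered counts (95%, exact Poisson or binomial) cover counting error only. Adding 1 slightly understates differences of low probes.

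The family, the lists (epithelial, mesenchymal, stem cell, miR-302, let-7, lineage markers), the tests and the alternatives were chosen with earlier results of these data known. Named are the 5 members, the miR-183 cluster, called or extreme members of 2 lists, marker miRNAs and the 3 nearest profiles per cluster. miR-143, miR-145 and the miR-302 and miR-367 cluster were named after their values were seen. Python 3.11.15, pandas 2.3.3 and scipy 1.17.1 were used. No value column was left unused.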

Additional observations from a re-analysis of the deposited data

How the results depend on the processing

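The count of family members called was 2 as reported. A pseudocount of 10 gave 3 (miR-200b, miR-200a and miR-429), with 32 lower and 25 higher calls over all probes. The count was 1 without a pseudocount and with viral probe scaling, and 4 above background only, with trend and robust and with voom. It was 0 with sum, top 100 and upper quartile scaling, with the viral mean subtracted and with the replicate block. Without any 1 sample, which leaves 1 sample in a genotype, no member was called. The replicate numbers did not pair the samples (correlation of deviations -0.094), and over all probes the replicate block left 10 lower and 20 higher calls against 24 and 24. The crossed pairing, chosen after seeing the data since the correlation was -0.24 above background, gave 37 and 27, with 3 members called. Over all probes trend and robust called 57 lower and 32 higher, voom 55 and 30, sum scaling 17 and 27, top 100 scaling 14 and 25, viral mean subtraction 14 and 18, above background only 48 and 26 of 238, and leaving out 1 sample 0 to 1 lower and 0 to 13 higher.

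The family median moved to -0.69 with sum, -0.65 with top 100, -0.72 with upper quartile and -0.72 with viral probe scaling, and ranged from -0.88 to -0.73 with 1 sample left out. These scalings moved the median of all mouse probes from -0.12 to between -0.025 and 0.042, and over all 16 alternatives the family median relative to it lay between -0.85 and -0.62. Epithelial calls went from 1 to 0 with the viral mean subtracted and without any 1 sample (0 to 0). Mesenchymal calls went from 2 to 0 with the replicate block and without any 1 sample (0 to 0). With probes above background alone, mesenchymal calls were 3. Besides miR-22 and miR-21, the list's probes in that fit (miR-143, miR-145 and miR-199a-3p) had negative differences. miR-96 turned to 0.025 with sum and 0.058 with top 100 scaling, and miR-183 to 0.015 with top 100 scaling. The causes were not tested. With 3 samples the test has 1 residual degree of freedom and a lone sample is assumed to vary like the other genotype. Depth limits miR-200a most, with 110 to 232 recovered counts.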
